A study of Mus musculus with 8 samples.

Results

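The iron storage and transport genes are 10 genes that hold, move or sense iron in the liver, and their m6A peaks were compared between livers with and without hepatocyte Wtap. The genes are Fth1, Ftl1, Tfrc, Tfr2, Trf, Hamp, Slc40a1, Cp, Aco1 and Ireb2. Their peaks were taken by gene name from the authors' peak lists, which gave 13 of the 15635 peaks of Wtap flox/flox livers, 12 of the 19185 peaks of Wtap-HKO livers, and 9 of the 3870 regions that the authors listed as differing between the genotypes. The genes were chosen by their role in iron metabolism with these lists in view, and Fth1 was selected on the difference in fold enrichment between the genotypes, so the values at these genes are a description and none of them was tested.

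m6ARIP-seq sequences the fragments of poly(A)+ RNA that an antibody to N6-methyladenosine (m6A) pulls down (IP) beside the same RNA before the pull-down (input). Livers came from C57BL/6 mice (C57BL/6J in the study's methods) on a normal chow diet at 8 weeks of age. Both genotypes carry floxed Wtap alleles (Wtap flox/flox). The mice called Wtap-HKO (Wtap flox/flox Alb-Cre) also carry a Cre recombinase driven by the albumin promoter, which is active in hepatocytes, so the other cells of a Wtap-HKO liver keep Wtap. There were 8 libraries, 2 IP and 2 input for each genotype, with the RNA of 5 mice pooled in a replicate. Replicates are combined in each of the authors' lists, so there are no SDs, and no difference between the genotypes can be set against the spread between replicates. Read totals are not in the lists used here, the depth is unknown, and a lower limit of detection cannot be given.

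Each peak has a fold enrichment, the ratio of IP to input on a linear scale, which describes how strongly a stretch of transcript was pulled down and not how abundant the transcript is. WTAP is a subunit of the m6A methyltransferase complex, where it keeps the catalytic subunit METTL3 and its partner METTL14 in nuclear speckles. Hepatocytes store iron in ferritin, shells built of heavy and light chains. Hepcidin, the peptide hormone made from Hamp, lowers iron export through ferroportin. The iron regulatory proteins bind stem-loops called iron-responsive elements in the mRNAs of ferritin, ferroportin and the transferrin receptor, so iron genes are a textbook case of control at the level of mRNA.

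Of the 10 genes, 7 had a peak in at least 1 genotype. Fth1, Slc40a1, Cp, Tfr2, Hamp and Ireb2 had peaks in both genotypes, and Ftl1 had a peak in Wtap-HKO livers alone. No peak in any of the 3 lists was named for, or lay in the span of, Tfrc (the transferrin receptor that takes up iron), Trf (transferrin, the iron carrier of plasma) or Aco1 (iron regulatory protein 1, which is also the cytosolic aconitase). Whether their mRNAs are unmethylated or the libraries could not show a peak was not tested.

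The peaks fell into 14 sites. A site joined the peaks of both genotypes that share at least 1 exonic base on the same strand. There were 11 sites with 1 peak in each genotype, 2 with a peak in Wtap flox/flox alone and 1 with a peak in Wtap-HKO alone. Among the 11 shared sites the fold enrichment was higher in Wtap-HKO at 9, in Fth1, Slc40a1, Tfr2, Hamp and at 2 of the 3 sites of Cp, and lower at 2, in Ireb2 and at the remaining site of Cp. Over all 10499 sites of the lists with 1 peak in each genotype, 50.4% were higher in Wtap-HKO. The median log2 ratio of Wtap-HKO to Wtap flox/flox was 0.62 at the 11 sites and 0.01 over all sites, where the middle 50% lay between -0.58 and 0.66. None of the 11 sites reached a 2-fold ratio in either direction, against 14.9% of all sites that were at least 2-fold higher in Wtap-HKO and 12.4% that were at least 2-fold lower. At a 1.5-fold ratio, 6 of the 11 sites were higher (27.9% of all sites) and 1, in Ireb2, was lower (25.0% of all sites).

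**Figure D1:**
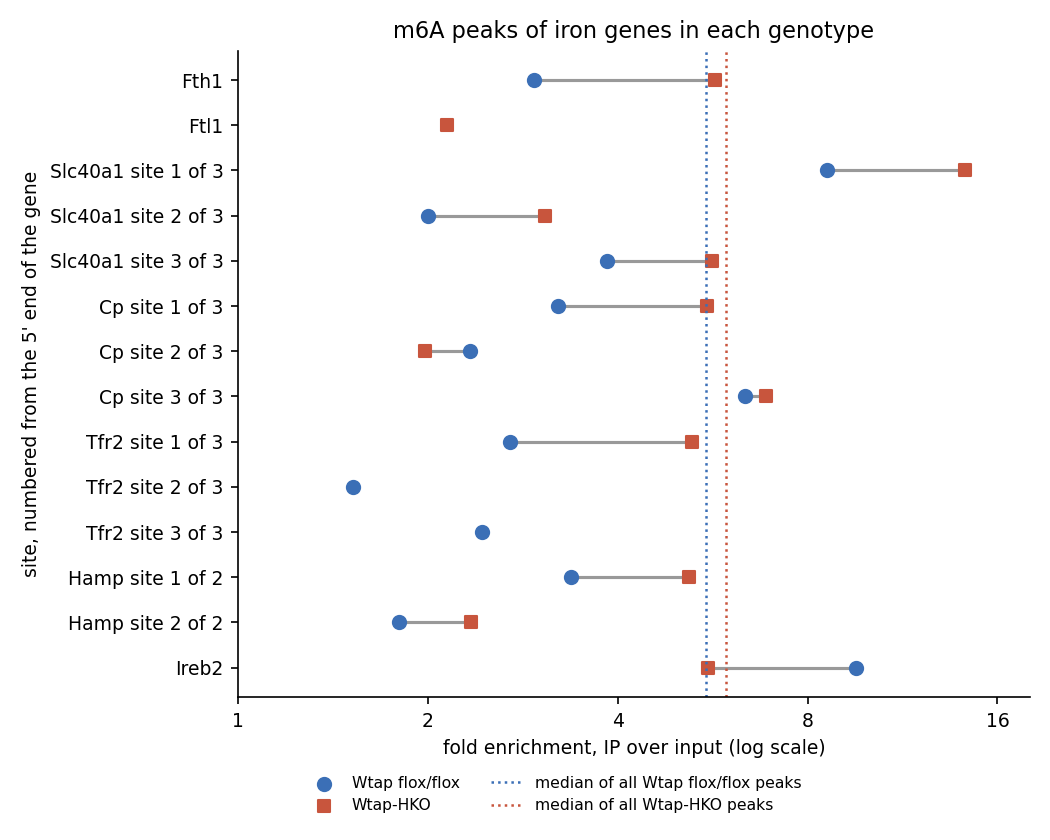
Fold enrichment (IP over input, log scale) of each site of the 7 iron genes with a peak, circles for Wtap flox/flox and squares for Wtap-HKO, each a value the authors computed from 2 replicates, with dotted lines at the median of all peaks of each genotype. At 9 of the 11 sites with both symbols the square lies to the right of the circle.

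The peak of Fth1 and those of Ftl1, Tfr2, Hamp and Cp nearest the 5′ end of the gene began close to a transcription start annotated by RefSeq on GRCm38.p6. The sequences around those starts are shown because the upstream edges of the peaks can be read against them. They are written 5′ to 3′ on the strand of the gene, and capitals mark the bases that lie inside the Wtap-HKO peak.

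Hamp, chr7:30944000-30944049, minus strand, 20 bases before to 30 bases from the start: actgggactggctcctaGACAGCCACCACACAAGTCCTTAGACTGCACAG
Tfr2, chr5:137569820-137569869, plus strand, 20 bases before to 30 bases from the start: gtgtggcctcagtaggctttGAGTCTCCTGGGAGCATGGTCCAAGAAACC
Cp, chr3:19957229-19957278, plus strand, 20 bases before to 30 bases from the start: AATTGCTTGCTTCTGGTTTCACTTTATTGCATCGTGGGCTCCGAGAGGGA
Ftl1, chr7:45459847-45459876, minus strand, bases 11 to 40 from the start: aacatgctataaaaggagcgctCCTTGCCC
Fth1, chr19:9982666-9982695, plus strand, bases 21 to 50 from the start: tcccgctataagtgcggcccgctgtcccct

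In Tfr2 the peak began on the first annotated base, and in Hamp 3 bases before it. The Wtap-HKO peak of Cp began 45 bases before the annotated start, so the whole stretch shown lay inside it, while the Wtap flox/flox peak began 15 bases after the start. In Ftl1 and Fth1 the peaks began 32 and 57 bases after it. Both of those stretches hold the letters TATAA, the core of the TATA box, a promoter element that normally lies upstream of the start. They begin at base 18 of Ftl1 and base 27 of Fth1, 15 and 31 bases before the upstream edge of the Wtap-HKO peak. Counted from 1 at the annotated start, with the base before it as -1, Cp held TATAA at -25. There the letters lie upstream of the stretch shown, inside the Wtap-HKO peak of Cp and before its Wtap flox/flox peak. On the strand of the gene these letters occurred in 17.5% of all 32851 start windows of the table (250 bases before and 50 bases from the start, 24.9% on either strand) and within the first 50 transcribed bases in 1.74%.

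The same windows were searched for GGACT, a frequent sequence of the m6A site (GGACU in RNA). The paper found this motif among the peaks of Wtap flox/flox livers but not among those of Wtap-HKO livers. Ftl1 held it at base 42, which is inside its Wtap-HKO peak, and at -118. Hamp held it at -22 and -16 and Tfr2 at -140, all before the start, and the windows of Cp and Fth1 did not hold it on the strand of the gene. GGACT occurred on that strand in 26.1% of all windows and on either strand in 45.5%, and within the first 50 transcribed bases in 5.76%. The letters CAGTGN, the loop of the iron-responsive element, were absent from the transcribed part of these 5 windows, which covers only the first bases of a peak or none, and occurred in that part of 7.08% of all windows. A match of letters is a description and no site, and the sequences under the peaks beyond these windows were not analysed here.

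The storage genes were read first. Fth1, the ferritin heavy chain that oxidises iron for storage, lies on chromosome 19 from 9980600 to 9985111 of GRCm38, on the plus strand (ENSMUSG00000024661). It had 1 peak in each genotype, from 9982703 to 9982912 in Wtap flox/flox and to 9982942 in Wtap-HKO. Its fold enrichment was 2.94 in Wtap flox/flox livers and 5.70 in Wtap-HKO livers, a ratio of 1.94 and a log2 ratio of 0.96. That ratio is higher than those of 83.8% of all shared sites. Within its own genotype's list the peak stood above 18.2% of the peaks in Wtap flox/flox and above 47.9% in Wtap-HKO, so Fth1 moved from the low end of the fold enrichments to the middle. The log10 false discovery rate was listed as minus infinity in both genotypes.

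Ftl1, the ferritin light chain, lies on chromosome 7 from 45457944 to 45459886 on the minus strand (ENSMUSG00000050708). It had no peak in Wtap flox/flox and a peak of 179 nt in Wtap-HKO, from 45459676 to 45459854, with a fold enrichment of 2.14, above 5.36% of the peaks of that list. Of all Wtap-HKO peaks, 35.3% shared no exonic base with a peak of Wtap flox/flox. A gene without a name on the opposite strand (ENSMUSG00000110350) had a Wtap-HKO peak over nearly the same bases, 45459677 to 45459855, with a fold enrichment of 2.13 and none in Wtap flox/flox. The library kit does not mark strand as it is named, so the reads of Ftl1 and of this gene cannot be told apart. The RefSeq table lists 5 ferritin pseudogenes, none of them with a peak of its own in either genotype. Reads that ferritin mRNAs share with those copies make the values of Fth1 and Ftl1 uncertain.

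The export genes came next. Slc40a1 encodes ferroportin, which carries iron out of Kupffer cells and hepatocytes, and lies on chromosome 1 from 45908070 to 45926532 on the minus strand (ENSMUSG00000025993). It had 3 sites in each genotype, all in the part of the gene nearer its 3′ end, and all 3 were higher in Wtap-HKO. At the first of them from the 5′ end (45911005 to 45912278, 2 exonic blocks) the fold enrichment was 8.58 in Wtap flox/flox against 14.2 in Wtap-HKO, a ratio of 1.66. The Wtap-HKO value there was the highest of all the iron gene peaks, above 80.6% of the peaks of its list. At the middle site (45909444 to 45909713) the fold enrichments were 2.0 and 3.07, a ratio of 1.53. At the site nearest the 3′ end (45908277 to 45908786) they were 3.85 and 5.65, a ratio of 1.47. The peaks were also longer in Wtap-HKO, at 569, 270 and 510 exonic nt against 539, 150 and 390 nt.

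Cp encodes ceruloplasmin, the plasma ferroxidase that oxidises iron leaving the cell. It lies on chromosome 3 from 19956933 to 20009750 on the plus strand (ENSMUSG00000003617) and had 3 sites whose ratios differed along the gene. At the site at the annotated start shown above (19957204 to 19964324, 2 exonic blocks) the fold enrichment was 3.22 in Wtap flox/flox livers and 5.53 in Wtap-HKO livers, a ratio of 1.72. At the middle site (19992612 to 19992912) it was 2.33 in Wtap flox/flox against 1.98 in Wtap-HKO, a ratio of 0.850. At the site nearest the 3′ end (20006626 to 20007256) the fold enrichments were 6.37 and 6.88, a ratio of 1.08, although the peak covered 631 nt in Wtap-HKO and 181 nt in Wtap flox/flox. The middle site of Cp was the only shared site other than that of Ireb2 with a lower value in Wtap-HKO.

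Tfr2 and Hamp belong to the sensing of circulating iron. Tfr2 encodes transferrin receptor 2, which reports transferrin iron to the hepcidin pathway, and lies on chromosome 5 from 137569822 to 137588081 on the plus strand (ENSMUSG00000029716). It had a shared site at its start and peaks of Wtap flox/flox alone near its 3′ end. At the start (137569840 to 137570079) the fold enrichment was 2.70 in Wtap flox/flox livers and 5.25 in Wtap-HKO livers, a ratio of 1.94 that equals that of Fth1 at this rounding. Near the 3′ end Wtap flox/flox had a peak of 150 nt with a fold enrichment of 1.52 (137587003 to 137587152) and one of 210 nt with 2.44 (137587272 to 137587481), and Wtap-HKO had neither. Those fold enrichments stood above 0.716% and 11% of the peaks of the Wtap flox/flox list. Of all Wtap flox/flox peaks, 19.9% shared no exonic base with a Wtap-HKO peak. A peak that is missing from a list can lie just under the caller's threshold, and its fold enrichment in that genotype is unknown.

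Hamp encodes hepcidin and is a short gene, on chromosome 7 from 30942368 to 30944029 on the minus strand (ENSMUSG00000050440). It had a site at each end. At the start (30943915 to 30944032) the fold enrichment was 3.37 in Wtap flox/flox against 5.18 in Wtap-HKO, a ratio of 1.54, and the peak covered the same 118 nt in both genotypes. At the 3′ end (30942368 to 30942543) it was 1.80 and 2.34, a ratio of 1.30, over 118 nt and 176 nt. Hamp2, a close copy of Hamp, had a shared site of its own with fold enrichments of 6.92 and 9.03 and a log2 ratio of 0.38. How reads were divided between both copies is not given in the sources used here, so the values of Hamp are uncertain.

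Ireb2 encodes iron regulatory protein 2, which iron removes by way of protein breakdown, and was the gene with the clearest lower value in Wtap-HKO. It lies on chromosome 9 from 54862658 to 54912534 on the plus strand (ENSMUSG00000032293) and had 1 site, at 54908918 to 54910011, in the final 10% of its span. The fold enrichment was 9.54 in Wtap flox/flox livers and 5.56 in Wtap-HKO livers, a ratio of 0.583 and a log2 ratio of -0.78. In Wtap flox/flox this was the highest value of the iron genes, above 74.3% of the list, and in Wtap-HKO it stood above 46.6%. The peak covered 391 nt in 2 exonic blocks in Wtap flox/flox and 331 nt in 1 block in Wtap-HKO. The other sensor, Aco1, had no peak, so the iron regulatory proteins cannot be compared with each other.

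**Figure D2:**
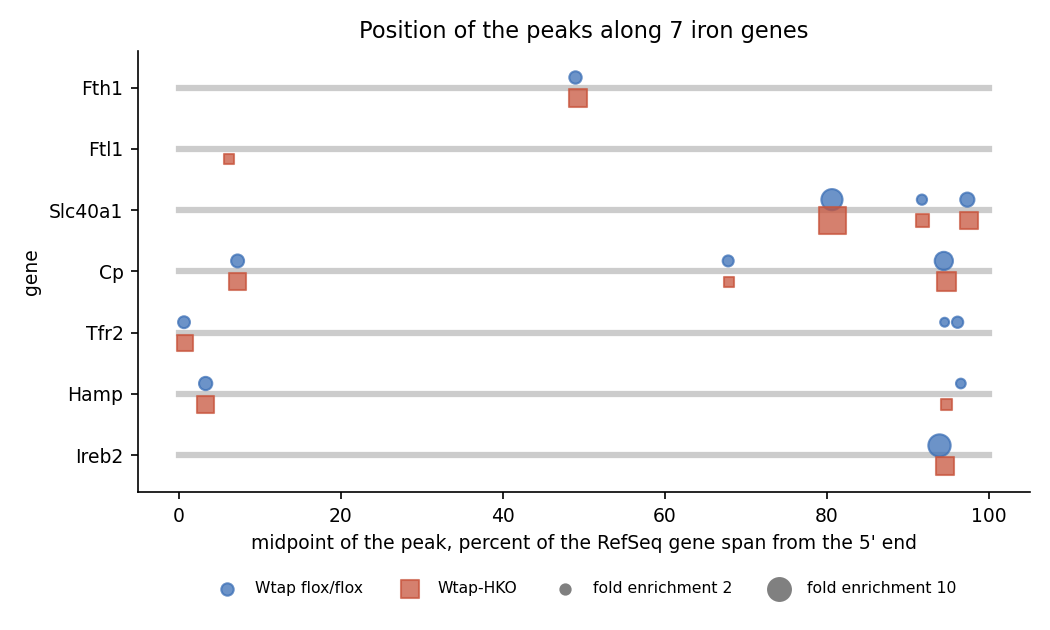
Midpoint of each peak in percent of the RefSeq gene span, from the 5′ end at 0 to the 3′ end at 100, for the 7 iron genes with a peak, circles for Wtap flox/flox and squares for Wtap-HKO, with the area of a symbol in proportion to the fold enrichment. Tfr2 has circles alone near its 3′ end, and Ftl1 has a square alone near its 5′ end.

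The peaks were then counted at both ends of the genes, with an edge no more than 200 nt from where the RefSeq gene span ends. At the 5′ end, Wtap flox/flox had 2 of its 13 iron gene peaks (Hamp and Tfr2; 10.7% of all placed peaks of that list) and Wtap-HKO had 3 of 12 (Hamp, Tfr2 and Ftl1; 18.2%). A peak was placed where the span of the gene named beside it overlapped it, which held for 89.1% and 89.3% of the peaks of the lists. At the 3′ end each genotype had 1, in Hamp (10% of all placed Wtap flox/flox peaks, 8.24% of the Wtap-HKO peaks). Slc40a1 came next at the 3′ end, 297 nt and 207 nt from it. By the final 10% of the span the numbers were 7 of 13 in Wtap flox/flox (41.9% of all placed peaks) and 5 of 12 in Wtap-HKO (35.4%), and the difference between those numbers is the pair of Tfr2 peaks found in Wtap flox/flox alone.

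The span of a gene begins at its outermost annotated start, which for Fth1 lies 2103 nt before the peak and for Cp 271 nt before the Wtap-HKO peak. Counted from any annotated start, a measure added after the positions had been seen, 4 of 13 iron gene peaks lay within 200 nt in Wtap flox/flox (13.4% of all peaks of genes with an annotated start) and 5 of 12 in Wtap-HKO (22.8%). They were those of Fth1, Cp, Tfr2 and Hamp in both genotypes, and that of Ftl1. All 4 shared sites at a start had a higher fold enrichment in Wtap-HKO, with log2 ratios from 0.62 to 0.96 and a median of 0.87. This is also the general pattern of the lists, and the paper describes Wtap-HKO peaks as spread over the 5′ untranslated region and the stop codon. Whether the peaks at a start hold m6A was not tested, so a higher fold enrichment there is not read as more m6A. Over the whole lists, 84.4% of the 1722 shared sites at an annotated start were higher in Wtap-HKO, with a median log2 ratio of 0.80, whereas the median of the 7934 sites elsewhere was -0.15.

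At the 7 shared iron gene sites away from a start, 5 were higher and the log2 ratios ran from -0.78 to 0.73, with a median of 0.38. Of all sites elsewhere, 42.0% were higher in Wtap-HKO. The 3 sites of Slc40a1 made up most of the higher ones, with the 3′ site of Hamp and the 3′ site of Cp. In the 3 iron genes with at least 2 shared sites, the site nearest the 5′ end had a higher ratio than the site nearest the 3′ end, by 0.67 in Cp, 0.24 in Hamp and 0.17 in Slc40a1 on the log2 scale. The same order held in 62.7% of all 2395 genes with at least 2 shared sites, with a median difference of 0.38.

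**Figure D3:**
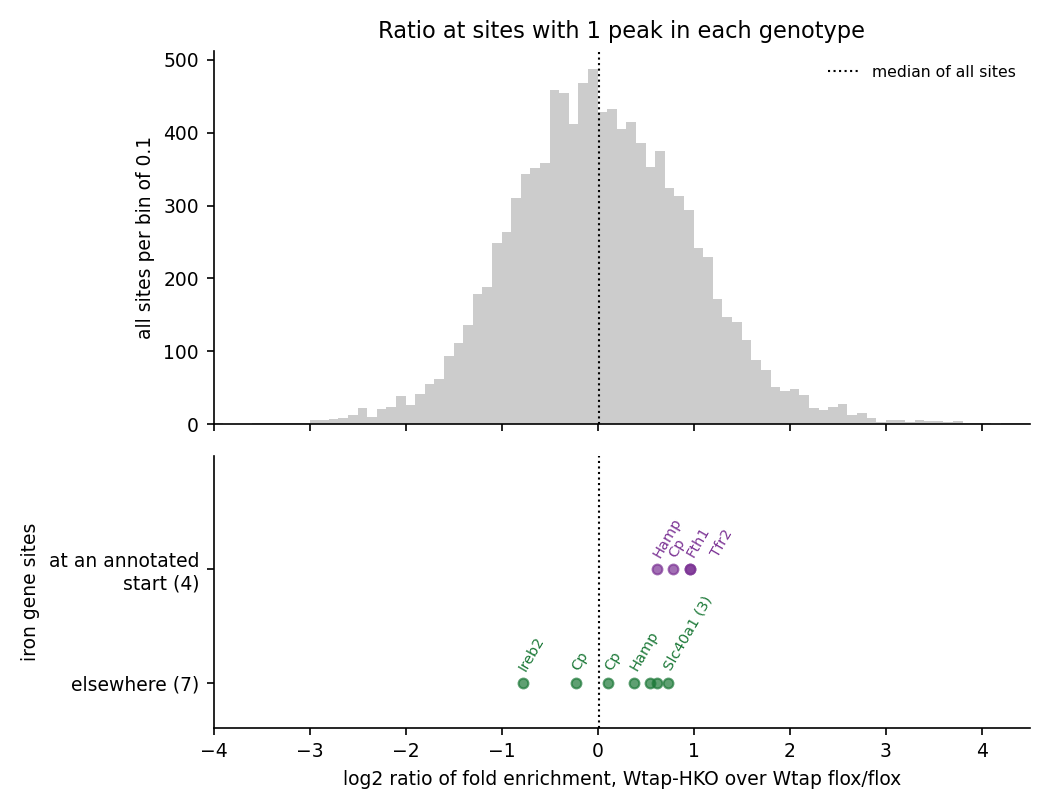
Top, number of sites with 1 peak in each genotype by their log2 ratio of fold enrichment, Wtap-HKO over Wtap flox/flox, in bins of 0.1. Bottom, the same ratio at the 11 shared sites of the iron genes, the 4 at an annotated start lying between 0.62 and 0.96 and the 7 elsewhere between -0.78 and 0.73, with a dotted line at the median of all sites (0.01).

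Sites with low fold enrichment in Wtap flox/flox had higher ratios. The ratio divides by that same value, so choosing sites where it is low tends to raise the ratio in itself. Over all shared sites with a fold enrichment under 4 in Wtap flox/flox, 69.2% were higher in Wtap-HKO and the median log2 ratio was 0.40. Of the 11 shared iron gene sites, 8 were under 4 in Wtap flox/flox, and 7 of those 8 were higher in Wtap-HKO, with a median log2 ratio of 0.62. Of the iron gene peaks, 10 of 13 in the Wtap flox/flox list and 10 of 12 in the Wtap-HKO list lay under the median of their own list, 5.51 and 5.93. The medians of the iron gene peaks were 2.94 and 5.39. A false discovery rate of 0 to the precision of the list (a log10 value of minus infinity) was given for 3 of the 13 Wtap flox/flox peaks and 7 of the 12 Wtap-HKO peaks, against 4.16% and 3.44% of all peaks. The fold enrichments of those iron gene peaks ran from 2.33 to 8.58 in Wtap flox/flox and from 2.14 to 14.2 in Wtap-HKO.

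The authors' list of differing regions named 6 of the 7 iron genes with a peak, and 27.8% of all 11558 genes with a peak in either genotype. These regions were part of how the genes were chosen, so nothing is read from their number. There were 3 regions in Tfr2, which overlap its start site and both 3′ peaks, and 2 in Cp, at its first and middle sites. Fth1, Ftl1, Slc40a1 (its site nearest the 3′ end) and Ireb2 had 1 each. Hamp had none, with a ratio of 1.54 at its start. In Slc40a1 the listed site had a ratio of 1.47, and the first and middle sites, not listed, had 1.66 and 1.53. The listed middle site of Cp had a ratio of 0.850. At these sites the listing did not follow the size of the ratio.

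Other genes of iron metabolism were placed beside them, 73 genes in 4 lists. Over the whole lists the genes with a peak numbered 9020 for Wtap flox/flox and 10634 for Wtap-HKO, 1.18 times as many, and the numbers for each iron list stand beside that general difference. Of the 17 genes of iron uptake and intracellular handling, 10 had a peak in Wtap flox/flox against 13 in Wtap-HKO. For the 19 genes that control hepcidin the numbers were 17 and 17. They were 10 and 14 of the 20 genes of haem synthesis, breakdown and transport, and 10 and 9 of the 17 genes of iron-sulphur cluster assembly. These genes had 56 shared sites, of which 33 were higher in Wtap-HKO (50.4% of all sites), with a median log2 ratio of 0.34. At least a 2-fold ratio was reached by 15 of the 56 sites in the higher direction (14.9% of all sites) and by 3 in the lower (12.4% of all sites). The haem list had the highest median log2 ratio, 1.15 over 11 sites, and the iron-sulphur list the lowest, -0.63 over 8 sites. The macrophage receptor Cd163 alone supplied 5 of the 11 haem sites and 4 of the 6 that were at least 2-fold higher, and without it the median of the remaining 6 sites was 0.77. In the wider lists too, the 14 sites at an annotated start had a higher median log2 ratio (0.65) than the 41 elsewhere (0.04), and 1 site belonged to a gene with no annotated start in the tables.

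**Figure D4:**
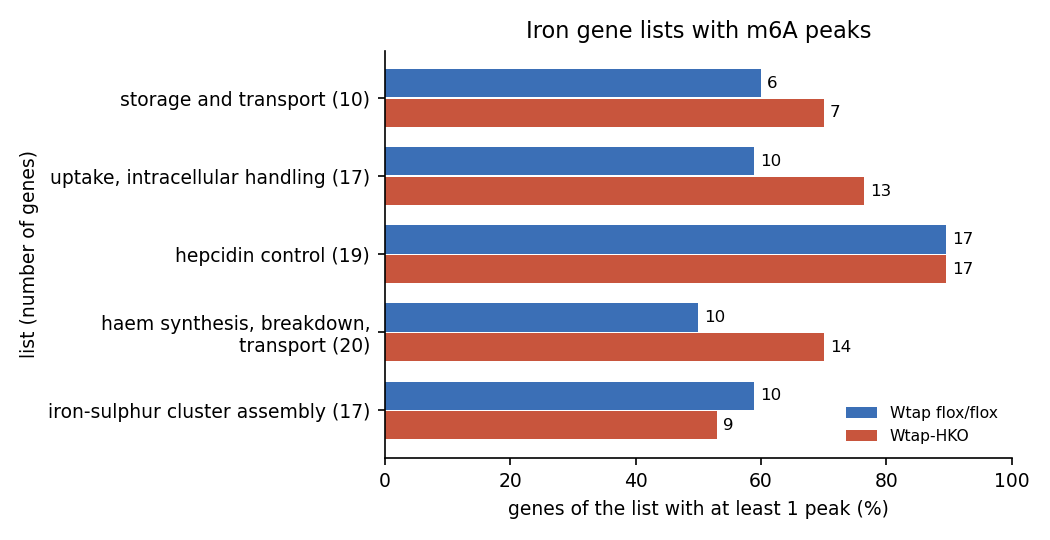
Genes with at least 1 peak in percent of each iron gene list, for Wtap flox/flox and Wtap-HKO, with the number of genes at the end of each bar. The hepcidin control list has 17 genes with a peak in both genotypes, and the haem list has 10 in Wtap flox/flox livers and 14 in Wtap-HKO livers.

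The highest ratios in those lists belonged to Bmpr2, Hmox2 and Cd163. Bmpr2, a receptor of the bone morphogenetic proteins that switch on Hamp, had fold enrichments of 6.90 in Wtap flox/flox against 79.5 in Wtap-HKO at its shared site, a log2 ratio of 3.53. Hmox2, the constitutive haem oxygenase, had 2.22 and 14.5 at a site at an annotated start (2.71), and 4.91 and 3.87 at its other shared site (-0.34). Cd163, the macrophage receptor for haemoglobin bound to haptoglobin, had 2.21 and 12.6 (2.51), and all 5 of its shared sites were higher in Wtap-HKO.

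The lowest ratios belonged to Smad6, Hp and Pcbp1. Smad6, an inhibitor of bone morphogenetic protein signalling, had 51.8 and 14.1 at a site at an annotated start (-1.88), with a higher value in Wtap-HKO at the other of its 2 shared sites. Smad6 also had a peak in Wtap-HKO alone next to that start site, with a fold enrichment of 22.9 (64020442 to 64021340). Hp, which encodes haptoglobin, had 4.27 and 2.03 (-1.07), and Pcbp1, an iron chaperone that loads ferritin, 6.56 and 3.25 (-1.01). The other shared site of Pcbp1 went the opposite way, with 8.10 and 30.2 (1.90). Hp also had a peak in Wtap-HKO alone, with a fold enrichment of 3.05.

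Markers of the cell types of the liver were looked up in the same lists, since Slc40a1 is also a gene of Kupffer cells. Of 8 hepatocyte markers, 4 had peaks in Wtap flox/flox livers and 5 in Wtap-HKO livers. The numbers were 3 and 7 of 8 for Kupffer cells and macrophages, 0 and 3 of 6 for leukocytes, 5 and 5 of 6 for endothelial cells, 3 and 5 of 6 for stellate cells, and 1 and 2 of 6 for erythroid cells, beside the 1.18 times as many genes with a peak in the whole Wtap-HKO list. At the shared sites of these markers the median log2 ratio was 0.61 for Kupffer cells and macrophages (4 of 6 sites higher in Wtap-HKO), 0.45 for endothelial cells (5 of 5), 0.78 for stellate cells (3 of 4) and 0.52 for hepatocytes (2 of 3). The erythroid markers had 1 shared site, with a log2 ratio of 1.13, and the leukocyte markers had 0. The log2 ratios of Slc40a1, from 0.55 to 0.73, lay within the range of the medians of the marker lists. The hepatocyte median is itself one of those medians, so lying in that range cannot tell the cell types apart. A peak needs both the transcript and its pull-down, so these counts are no measure of cell numbers, and fewer cells of a type cannot be told apart from less RNA in each. The part of cell types other than hepatocytes in the ratios of Slc40a1 was not tested. At the 3 shared sites of Wtap itself the log2 ratios were -0.85, -0.01 and 1.23 from the 3′ end to the 5′ end. Peaks do not show whether Wtap mRNA was lost, since a fold enrichment is not a level.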

How the data were processed

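Per the labels and the study's methods, poly(A)+ RNA was fragmented, pulled down with an m6A antibody and sequenced as 150 bp paired-end reads. The submitters' processing notes name fastp 0.19.11, BWA 0.7.12, HOMER 4.9.1 and build GRCm38, and the methods name exomePeak 2.16.0 as peak caller. The authors deposited the fold enrichment as a linear ratio of IP over input and the false discovery rate as a log10 score. The differing regions also carry the authors' own log2 fold changes and p-values, which were not used; only their positions and gene names were. The rule by which replicates were combined is not given in the sources used here, nor is the library scaling, which can shift a ratio between the lists.

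Here peaks were matched and placed in pandas 2.3.3 under Python 3.11.15 (numpy 2.4.6) and drawn with matplotlib 3.10.9. Distances were tested on simulated peaks, and all 2000 planted distances were recovered. Matching was tested on the Wtap flox/flox list against a copy of itself in which some peaks were moved away. All 7561 peaks left in place were matched. Those peaks were identical in both copies, so partial overlaps and sites with several peaks were not tested. Ratios were taken only at sites with 1 peak in each genotype. Gene spans and starts came from RefSeq on GRCm38.p6, with starts for 8 of the 10 genes; for the others the span end served. Positions are 1-based. Peaks were not assigned to coding sequence or untranslated regions, because no transcript models were used here. The genes and lists were chosen with earlier results of these data known. All 10 genes are named, with the 3 highest and 3 lowest ratios of the other iron genes; Hamp2 was named as a copy of Hamp after its values were seen. No replicate comparison, test or interval was possible. Alternatives were a fold enrichment of at least 2, a false discovery rate under 1e-05, merged peaks, peaks by span, other overlaps, centred or length-weighted ratios, a 1.5-fold ratio and other distances from the gene ends.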

Additional observations from a re-analysis of the deposited data

How the results depend on the processing

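No paired analysis was possible because the lists combine the replicates, and for the same reason leaving out each replicate in turn was not run. Of 65 alternative values, 54 kept within 1.5 times a count or 0.1 of a log2 ratio, and 11 moved by more. A count cannot change sign, and no log2 ratio did. At a site with 1 peak in each genotype the length-weighted ratio is the same value, and centring subtracts only 0.01. Those alternatives could not move a ratio by 0.1, so their agreement was fixed in advance and is no support. The same holds where a count of 0 sites past 2-fold was divided into sites at a start and sites elsewhere. The counts of iron gene peaks ran from 11 to 13 in Wtap flox/flox and from 11 to 12 in Wtap-HKO, the shared sites from 9 to 11, and the median log2 ratio from 0.61 to 0.62. A 1.5-fold ratio in place of 2-fold moved the sites counted as higher from 0 to 6 and as lower from 0 to 1, by its own construction, and in the wider iron lists from 15 to 23 and from 3 to 12. Counting from any annotated start, an alternative added after seeing the data, moved the peaks at the 5′ end from 2 to 4 in Wtap flox/flox and from 3 to 5 in Wtap-HKO. At the 3′ end a distance of 500 nt in place of 200 nt moved 1 to 2 in both genotypes, and the final 10% of the span gave 7 and 5. Without Cd163, also added later, the median log2 ratio of the haem list moved from 1.15 to 0.77. Fold enrichment of at least 2 left 5 of 6 genes with a differing region. The lists hold no reads, so what depth allows cannot be stated.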
